A study of Glycine max with 9 samples.

Results

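The soybean loci described here are a pair of Nod factor receptor loci, NFR1 (Glyma.02G270800) and NFR5 (Glyma.11G063100), and 4 loci of the transcription factor NIN (Glyma.04G000600, Glyma.14G001600, Glyma.02G311000 and Glyma.06G000400). They were chosen by gene ID, with earlier results of these data known, as 6 of the 56044 IDs for which expression was deposited. The contrast between receptor and NIN levels is therefore a description of chosen loci. Transcripts were sequenced in 9 libraries of root hair cells, the tubular outgrowths of the root epidermis, from Glycine max plants grown in an aeroponic system. The genotype is labelled willam 82 in every library. The 3 groups are titled 12h, 24h and 48h and hold 3 libraries each. Their labelled plant ages were 276, 288 and 312 hours after sowing. No treatment, rhizobial inoculation or mutation is named for any group, so age is the labelled difference between them. If all plants were sown at the same hour, the 12h group was collected at another time of day than the others. Age and time of day then cannot be told apart in comparisons with 12h. Whether replicate libraries stem from different plants is not labelled, so every p-value reflects only the variation among these libraries, which may be technical.

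NFR1 and NFR5 are receptor kinases with extracellular LysM domains, and legumes need both to perceive Nod factors, the lipochitooligosaccharide signals of rhizobia. Root hairs are the cells in which this perception begins in soybean. In the model legume Lotus japonicus NFR1 has an active kinase domain, whereas that of NFR5 lacks kinase activity. The signal passes through the receptor kinase SymRK and nuclear calcium oscillations, which the kinase CCaMK decodes, to the GRAS-type transcription factors NSP1 and NSP2 and to NIN. NIN is a transcription factor of the RWP-RK type that is induced by Nod factor signalling and is needed for infection threads and nodules.

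Values are FPKM, fragments scaled to transcript length and to the mapped total, so that levels of different genes can be set side by side per length. The read depth behind them is unknown. Between 37256 and 42430 IDs were above 0 in a library. The first principal component, with 47.3% of the variance of the 31518 genes tested, had its highest scores in 12h replicate 2 (131) and in 24h replicates 2 and 3 (53.9 and 93.0), against -70.7 to 8.28 in the other 6 libraries. The median of the tested genes was 3.23 FPKM in 12h replicate 2 and 4.01 to 6.72 FPKM in the other libraries. Markers of root hairs and of other root cells could not be matched to IDs, so the labelled cell type was not checked against them. All 4 loci published for leghemoglobin, the oxygen carrier of nodule cells, were listed at 0 in all 9 libraries.

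Both receptor loci were expressed in every library. These are bulk libraries, in which fewer cells with a transcript and less of it per cell cannot be told apart. NFR1 had 21.9, 16.3 and 10.1 FPKM in the 12h libraries, 25.1, 12.8 and 16.9 FPKM in the 24h libraries, and 22.3, 31.5 and 24.1 FPKM in the 48h libraries. Its lowest value was in 12h replicate 3 and its highest in 48h replicate 2, and the 24h libraries overlapped both other groups. The receptor partner NFR5 had 31.8, 19.3 and 8.83 FPKM at 12h, 33.3, 17.5 and 16.8 FPKM at 24h, and 22.9, 33.1 and 27.2 FPKM at 48h. For NFR5 each pair of groups overlapped, and 12h replicate 3 was again the lowest library. The coefficient of variation between the libraries of a group was largest at 12h for both, with 36.5%, 34.3% and 18.8% for NFR1 and 57.6%, 41.5% and 18.5% for NFR5 at 12h, 24h and 48h. Within a library, NFR1 lay above 81.0% to 92.4% of all IDs and NFR5 above 78.9% to 92.8%.

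**Figure D1:**
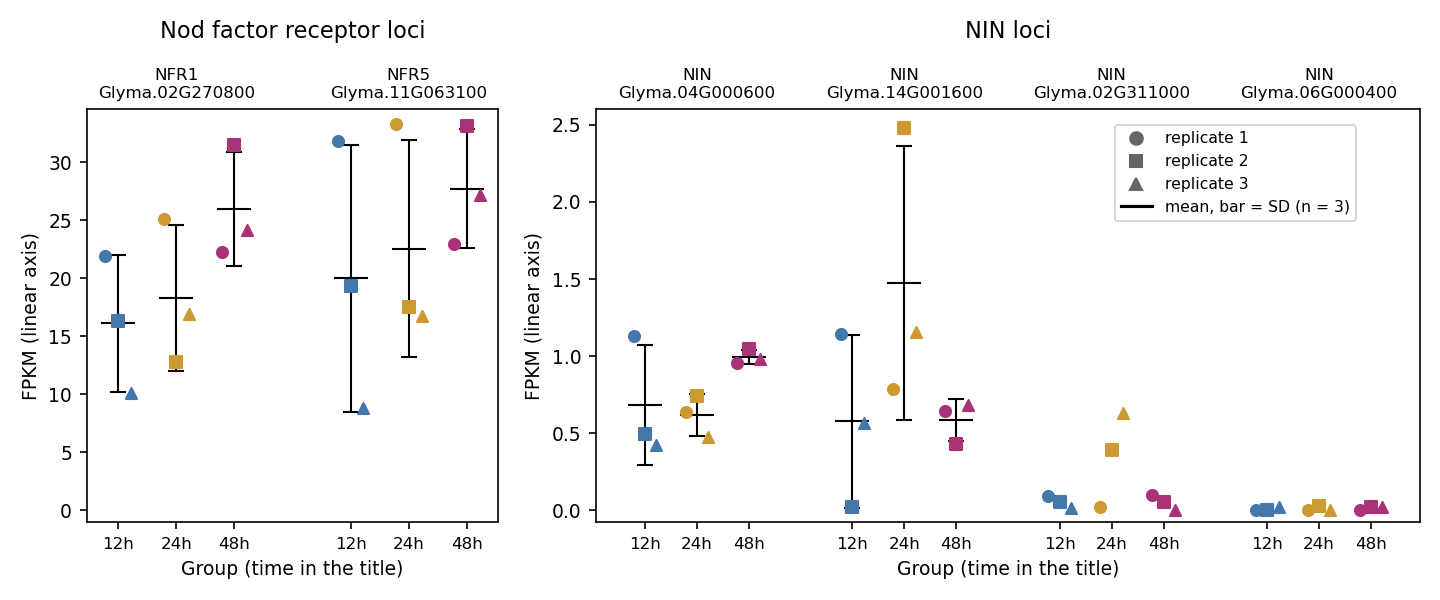
FPKM of each locus by group (time in the title), on a linear axis that differs between the 2 panels. Points are libraries, dashes are means and bars are SD (n = 3), left out for Glyma.02G311000 and Glyma.06G000400, which were listed at 0 in 1 and 5 libraries. The receptor loci lie between 8.83 and 33.3 FPKM in all 9 libraries, and no NIN locus exceeds 2.48 FPKM.

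The NFR1 and NFR5 levels followed each other across libraries. Over the 9 libraries the Pearson correlation of their log2(FPKM + 1) values was 0.926 (exact permutation p = 0.000295, adjusted p = 0.00295 over the 10 pairs of members tested) and Spearman's rho was 0.883 (exact permutation p = 0.00308, adjusted p = 0.0308). Glyma.06G000400 was above 0 in too few libraries to enter these pairs. Without the 2 libraries farthest from the median of NFR1, 12h replicate 3 and 24h replicate 2, Pearson's r was 0.858. Median-of-ratios scaling, which removes differences in overall level between libraries, gave a Pearson's r of 0.906 (exact permutation adjusted p = 0.00526) and a rho of 0.85 whose exact permutation adjusted p of 0.0607 no longer passed. Without the same 2 libraries the scaled r was 0.705. All 9 points mix the 3 ages, and 3 libraries per age allow no correlation within an age. None of the other 9 pairs passed when adjusted. Among these, NFR5 and the NIN locus Glyma.04G000600 had a Pearson's r of 0.738 as deposited (exact permutation p = 0.0197, adjusted p = 0.0985), and 0.872 without 12h replicate 3 and 24h replicate 1, the libraries farthest from the median of NFR5. After scaling it was 0.65, and 0.167 without 12h replicates 2 and 3, which were then the farthest, so the scaled relation rests on those libraries.

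**Figure D2:**
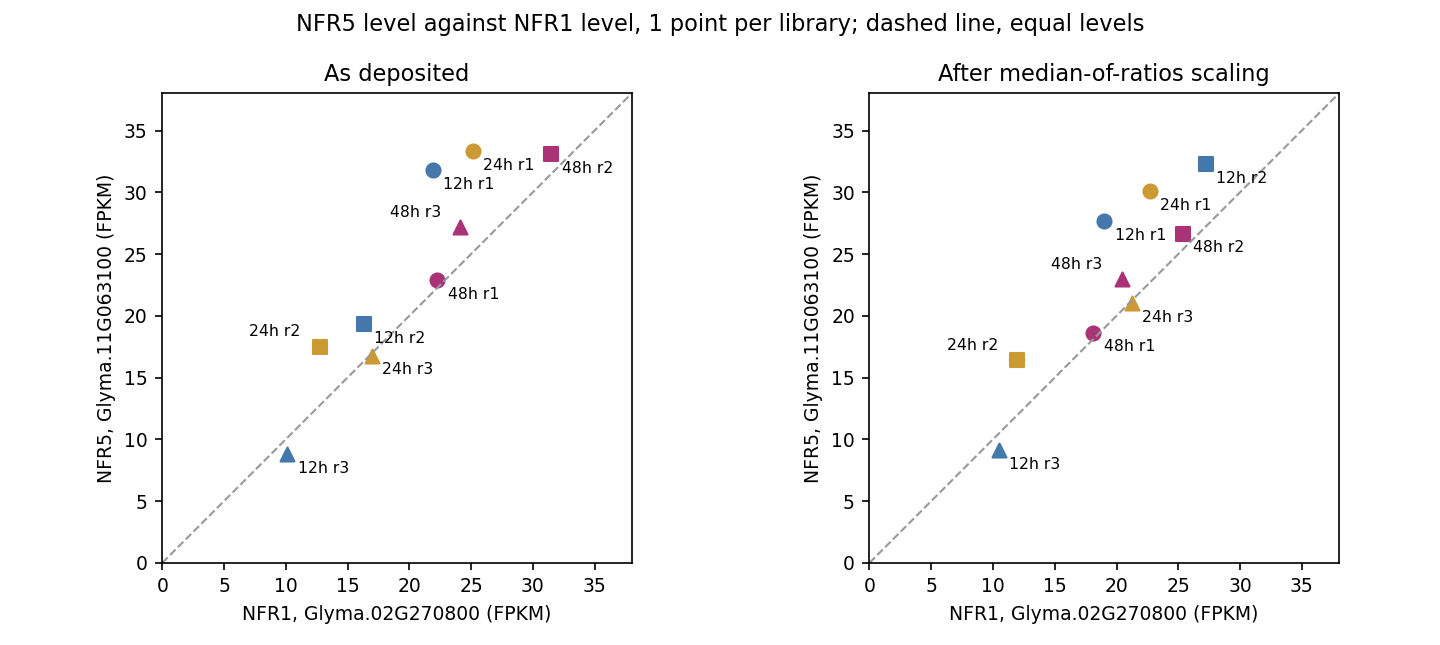
NFR5 level against NFR1 level in FPKM, 1 point per library labelled by group and replicate (r), before (left) and after (right) median-of-ratios scaling. The dashed line marks equal levels, and 7 of the 9 libraries lie above it, with 12h replicate 3 at the low end in both panels.

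The ratio of NFR1 to NFR5 within a library does not depend on how that library was scaled. NFR1 was the lower of the pair in 7 of 9 libraries. The ratio was 0.688, 0.844 and 1.15 in the 12h libraries, 0.754, 0.730 and 1.01 in the 24h libraries, and 0.972, 0.952 and 0.888 in the 48h libraries. The exceptions above 1 were 12h replicate 3 and 24h replicate 3, and the 48h values lay within the ranges of the other groups. The mean log2 ratio was -0.28 at 24h and -0.20 at 12h (exact permutation p = 0.7, two-sided), and -0.094 at 48h (exact permutation p = 0.4 against 24h and 0.7 against 12h). With 3 against 3 libraries the smallest possible p is 0.1.

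Neither receptor locus passed the test for a difference between ages. The test was limma's moderated test on log2(FPKM + 1) over all 9 libraries, with p-values adjusted over 31518 genes by Benjamini-Hochberg and calls under 0.05. For 48h versus 12h, NFR1 averaged 26.0 ± 4.89 FPKM in the 48h libraries, compared with 16.1 ± 5.88 FPKM in the 12h libraries (SD, n = 3 each), and the fitted log2 fold change was 0.70 ± 0.365 (SE; 95% interval -0.094 to 1.50, limma adjusted p = 0.48). Every 48h library lay above every 12h library, but only just, with 22.3 FPKM in the lowest 48h library and 21.9 FPKM in the highest 12h library. Of all tested genes, 19.8% were likewise higher at 48h with no overlap, and after median-of-ratios scaling the NFR1 groups overlapped. NFR5 averaged 27.7 ± 5.12 FPKM in the 48h libraries, compared with 19.995 ± 11.5 FPKM in the 12h libraries (SD, n = 3 each), and the fitted log2 fold change was 0.60 (95% interval -0.36 to 1.57, limma adjusted p = 0.548). Single 12h libraries decided much of both values. Without 12h replicate 3 the fold change was 0.42 for NFR1 and 0.14 for NFR5, and without 12h replicate 1 that of NFR5 was 1.01.

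The fitted values of the shorter steps in age add up to that for 48h versus 12h. Both steps were positive for each receptor, so each is smaller by construction. For 24h versus 12h the log2 fold change was 0.18 for NFR1 (95% interval -0.61 to 0.98, limma adjusted p = 0.84) and 0.26 for NFR5 (95% interval -0.71 to 1.23, limma adjusted p = 0.811). For 48h versus 24h it was 0.52 for NFR1 (95% interval -0.28 to 1.32, limma adjusted p = 0.446) and 0.34 for NFR5 (95% interval -0.63 to 1.31, limma adjusted p = 0.694). The intervals of these comparisons reach a doubling or come near it, so a higher level by that much lies within them. Of the 3 loci above the filter (1 FPKM or more in 3 or more libraries), 0 were called in any comparison of 2 ages and 0 had an unadjusted p under 0.05. Over all tested genes limma called 0.0381% for 24h versus 12h, 0% for 48h versus 24h and 0.117% for 48h versus 12h, while 9.96%, 17.9% and 10.8% had an unadjusted p under 0.05. The F test over the 3 ages called 0 of the 3 loci and 0.0286% of all tested genes.

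The size of these receptor differences depended on how the libraries were scaled. As deposited, the median log2 fold change over all tested genes was 0.10 (24h versus 12h), 0.23 (48h versus 24h) and 0.34 (48h versus 12h), and median-of-ratios scaling brought it to -0.021, -0.015 and -0.023. With this scaling the log2 fold change for 48h versus 12h was 0.25 for NFR1 and 0.14 for NFR5, against 0.94 and 0.84 when each library was instead rescaled to TPM, a fixed sum. The scaled NFR1 mean was 21.3 ± 3.71 FPKM in the 48h libraries, compared with 18.9 ± 8.38 FPKM in the 12h libraries (SD, n = 3 each). The scaled NFR5 mean was 22.8 ± 4.01 FPKM in the 48h libraries, compared with 23.0 ± 12.2 FPKM in the 12h libraries (SD, n = 3 each).

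**Figure D3:**
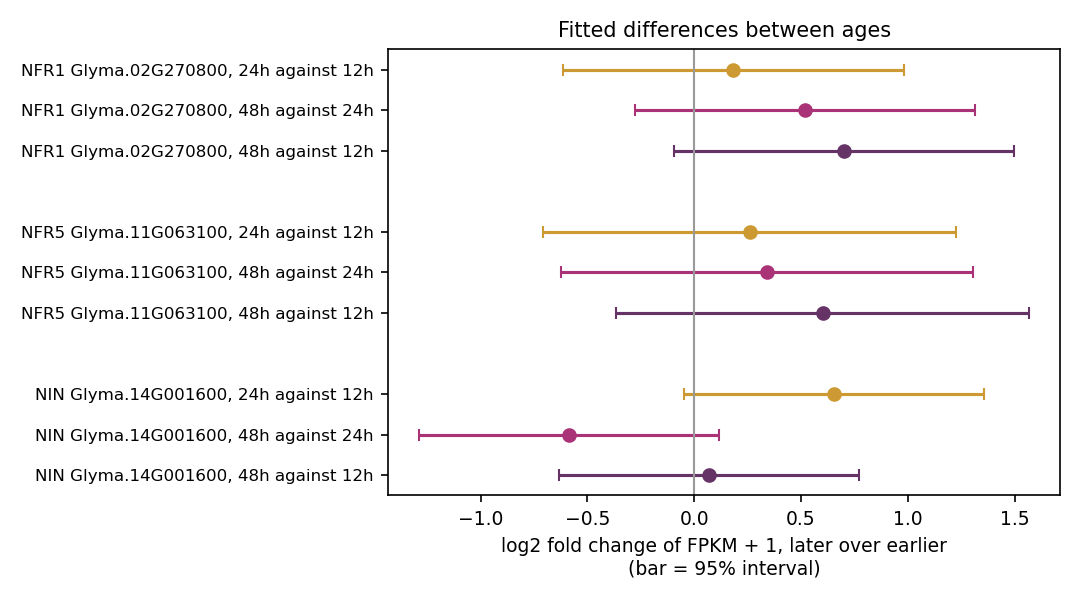
Fitted log2 fold change of FPKM + 1 (points) with its 95% interval (bars) for the 3 loci above the filter, later over earlier group. All 9 intervals include 0, and Glyma.14G001600 has a positive value for 24h versus 12h (0.66) and a negative one for 48h versus 24h (-0.59).

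The 4 NIN loci were far below the receptors and unequal among themselves. Glyma.04G000600 was found at a low level in every library, with 1.13, 0.492 and 0.426 FPKM at 12h, 0.639, 0.743 and 0.475 FPKM at 24h, and 0.952, 1.05 and 0.984 FPKM at 48h. Its 48h libraries all lay above its 24h libraries and within the wide 12h range. Glyma.14G001600 had 1.14, 0.0244 and 0.564 FPKM at 12h, 0.788, 2.48 and 1.16 FPKM at 24h, and 0.645, 0.432 and 0.681 FPKM at 48h. It had both the highest NIN value, in 24h replicate 2, and a value near 0 in 12h replicate 2, and its 24h libraries all lay above its 48h libraries. Glyma.02G311000 had 0.0918, 0.0554 and 0.0118 FPKM at 12h, 0.0238, 0.394 and 0.634 FPKM at 24h, and 0.101, 0.0539 and 0 FPKM at 48h. Only 24h replicates 2 and 3 exceeded 0.101 FPKM for this locus, and these are among the 3 libraries with high first-component scores. Glyma.06G000400 was listed at 0 in 5 of 9 libraries, and its other values were 0.0208 FPKM in 12h replicate 3, 0.0270 FPKM in 24h replicate 2, and 0.0231 and 0.0203 FPKM in 48h replicates 2 and 3. It was thus the lowest NIN locus over all, and a listed 0 may be a failed estimate.

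By mean over the 9 libraries the members ran from NFR5 (23.4 FPKM) and NFR1 (20.1 FPKM) through Glyma.14G001600 (0.880 FPKM) and Glyma.04G000600 (0.765 FPKM) down to Glyma.02G311000 and Glyma.06G000400. Neighbours in this order overlapped between libraries, except at the step from the receptors to the NIN loci, where 8.83 FPKM was the lowest receptor value and 2.48 FPKM the highest NIN value. Within a library, the lower receptor exceeded the highest NIN locus in 9 of 9 libraries, by 5.16 times in 24h replicate 2 and by 33.2 times in 12h replicate 2 at the extremes. Glyma.04G000600 lay above 40.4% to 47.8% of all IDs in a library and Glyma.14G001600 above 32.9% to 60.8%.

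No NIN locus passed the test between ages. For 24h versus 12h, Glyma.14G001600 averaged 1.47 ± 0.888 FPKM in the 24h libraries, compared with 0.578 ± 0.560 FPKM in the 12h libraries (SD, n = 3 each), and the fitted log2 fold change was 0.66 ± 0.322 (SE; 95% interval -0.046 to 1.36, limma adjusted p = 0.501). For 48h versus 24h it averaged 0.586 ± 0.135 FPKM in the 48h libraries (SD, n = 3), and the fitted log2 fold change was -0.59 (95% interval -1.29 to 0.11, limma adjusted p = 0.341). Of all tested genes, 11.7% were likewise lower at 48h than at 24h with no overlap. Scaling by median of ratios raised that share to 22.7%, and Glyma.14G001600 still showed no overlap. It passed the filter through exactly 3 libraries, 12h replicate 1 and 24h replicates 2 and 3. The 24h versus 12h value was 0.38 without 12h replicate 2 or without 24h replicate 2, and without 24h replicate 2 the 48h versus 24h value was -0.31. With a pseudocount of 0.1, which compresses low values less, the values were 1.60 for 24h versus 12h, -1.07 for 48h versus 24h and 0.53 for 48h versus 12h. For 48h versus 12h its log2 fold change was 0.068 (95% interval -0.63 to 0.77, limma adjusted p = 0.915).

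The other NIN loci entered a test when no filter was applied, which left 45890 genes above 0 in at least 1 library. Glyma.04G000600 then had a log2 fold change of 0.30 ± 0.176 (SE) for 48h versus 24h (limma adjusted p = 0.422), with no overlap between the groups with or without scaling. Of the 45890 genes, 27.3% were likewise higher at 48h with no overlap before scaling, and of the 31518 genes above the filter 22.5% were after it. Glyma.02G311000 had a log2 fold change of 0.33 for 24h versus 12h (limma adjusted p = 0.543) and -0.34 for 48h versus 24h (limma adjusted p = 0.323), with unadjusted p-values of 0.0454 and 0.0443 by limma. Its 24h level came almost wholly from replicates 2 and 3. Of the 31518 genes above the filter, 9.96% and 17.9% had an unadjusted p under 0.05 by limma in these comparisons. No such share was taken without the filter. In the fit with no filter limma called 0 of the 6 members in any comparison. Over all genes it called 0.00436% for 24h versus 12h, 0.00218% for 48h versus 24h and 0.00436% for 48h versus 12h. Genes this low are compressed by the pseudocount of 1, so these fold changes understate their ratios.

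The summed level of the NIN loci and its make-up varied between libraries. The sum was 2.37, 0.572 and 1.02 FPKM in the 12h libraries, 1.45, 3.64 and 2.27 FPKM in the 24h libraries, and 1.70, 1.55 and 1.69 FPKM in the 48h libraries. Values at 48h were thus close to one another, and both the lowest and the highest sums came from libraries with high first-component scores. Glyma.14G001600 gave 4.26% to 55.2% of the sum at 12h, 51.1% to 68.0% at 24h and 27.8% to 40.4% at 48h. Glyma.04G000600 gave 41.6% to 86.1% at 12h, 20.4% to 44.0% at 24h and 56.1% to 67.3% at 48h. The highest NIN locus was therefore Glyma.04G000600 in all 48h libraries and Glyma.14G001600 in all 24h libraries, and 12h had both. These shares are descriptions of chosen loci and were not tested. Whether reads were shared between NIN loci, and then assigned to either, was not checked.

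The mean of both receptors was above the NIN sum in every library. This ratio was 11.3, 31.2 and 9.27 in the 12h libraries, 20.1, 4.16 and 7.44 in the 24h libraries, and 13.3, 20.8 and 15.2 in the 48h libraries. The groups overlapped, and the spread within 12h and within 24h exceeded that within 48h. The lowest ratio, in 24h replicate 2, coincided with the highest NIN sum, and the highest ratio, in 12h replicate 2, with the lowest NIN sum. The NIN sum is the divisor of this ratio, so such an inverse relation is partly built in.

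**Figure D4:**
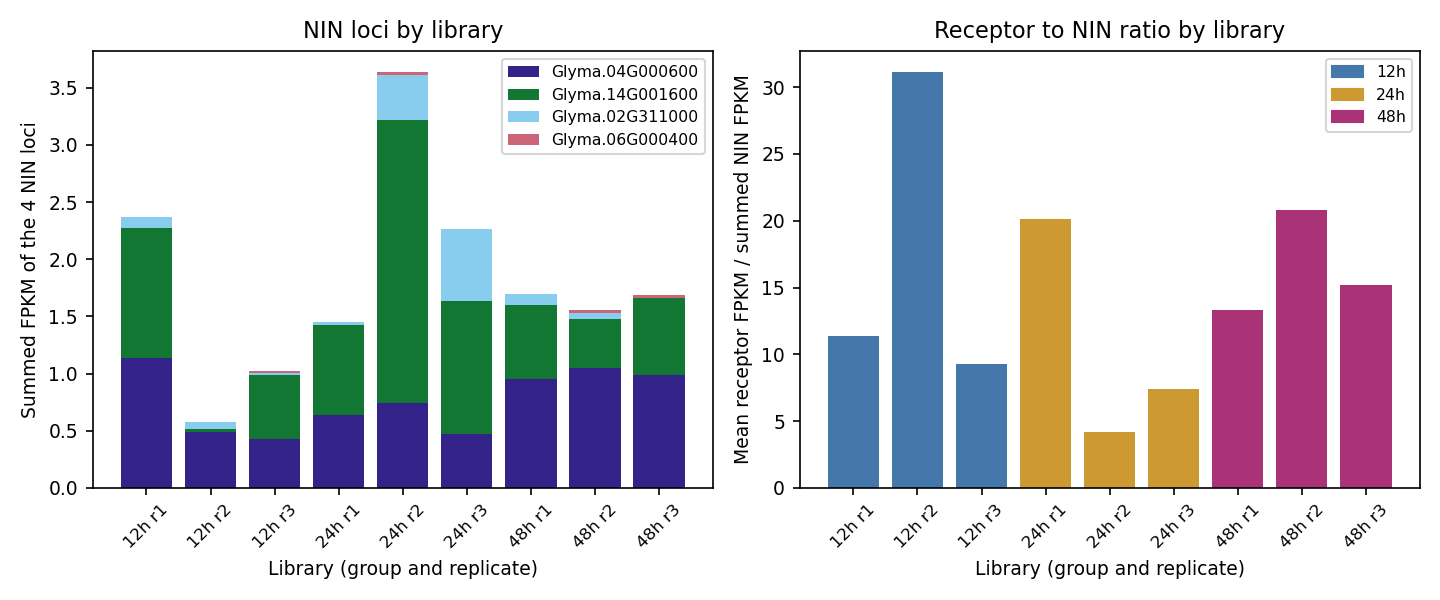
Left, summed FPKM of the 4 NIN loci in each library, stacked by locus. Right, mean FPKM of NFR1 and NFR5 divided by that sum, with bars coloured by group. The sum peaks in 24h replicate 2 (3.64 FPKM), where the ratio is lowest (4.16), and the ratio is highest in 12h replicate 2 (31.2).

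For other steps of the pathway, 16 loci were taken from published soybean locus names, which could not be checked by ID against an annotation here. RefSeq symbols (assembly Glycine_max_v4.0) for 14 of all 22 listed loci, among them NFR5A and NINA, stand on the chromosome that the ID names (14 of 14). That agreement is by chromosome only, and just 2 of the 6 members, Glyma.11G063100 and Glyma.04G000600, had a symbol to compare. Of the 16 loci, 7 passed the filter and 0 were called higher or lower in any comparison of 2 ages (limma). Those with an unadjusted p under 0.05 numbered 1 for 24h versus 12h, 3 for 48h versus 24h and 0 for 48h versus 12h. Over all tested genes 9.96%, 17.9% and 10.8% had an unadjusted p under 0.05 by limma, and 0.0381%, 0% and 0.117% were called. Both SymRK loci, whose levels were close in each library, are among the 3. The other, Glyma.01G179100, reached 1 FPKM only in the 48h libraries. It thus entered the test through the group where it was high, and its value there is no independent support. The median log2 fold change of the 7 was -0.13, 0.16 and 0.30 in these comparisons, beside 0.10, 0.23 and 0.34 over all tested genes.

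The other published copies of the receptor loci were low. Glyma.14G046200, published as a further NFR1 copy, had 0.199 to 1.08 FPKM and did not pass the filter, and NFR1 itself was 21.8 to 51.3 times as high in the same library. Glyma.01G179100, published as a further NFR5 copy, had means of 0.624 ± 0.368 FPKM (12h), 0.466 ± 0.175 FPKM (24h) and 1.12 ± 0.158 FPKM (48h), with SD over 3 libraries. NFR5 itself was 12.7 to 85.5 times as high in the same library. The copies resemble each other in sequence, and reads shared between them could have been assigned to either.

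The common symbiosis loci lay near the receptors in level. The loci published as SymRK, the receptor kinase downstream of Nod factor perception, had close levels in the same library, with a ratio of 0.996 to 1.48 of Glyma.01G020100 to Glyma.09G202300. Whether reads were shared between them was not checked. Glyma.01G020100 averaged 46.6 ± 4.20 FPKM in the 48h libraries, compared with 18.3 ± 10.4 FPKM in the 24h libraries (SD, n = 3 each), and the fitted log2 fold change was 1.42 (limma adjusted p = 0.248). Glyma.09G202300 averaged 37.2 ± 5.53 FPKM in the 48h libraries, compared with 14.6 ± 9.73 FPKM in the 24h libraries (SD, n = 3 each), and the fitted log2 fold change was 1.45 (limma adjusted p = 0.248). For both, the 48h libraries lay above all 24h libraries, as did 32.6% of tested genes, and the 3 lowest libraries were 12h replicate 2 and 24h replicates 2 and 3. The receptors had a different lowest library, 12h replicate 3, in which the SymRK loci had 49.6 and 39.4 FPKM. Glyma.15G222300, published as CCaMK, had means of 26.7 ± 11.4 FPKM (12h), 26.3 ± 3.26 FPKM (24h) and 26.4 ± 1.95 FPKM (48h), each with its SD over 3 libraries.

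Loci published for the GRAS factors and for autoregulation, the feedback that limits nodule number, were lower. Glyma.07G039400, published as NSP1, had means of 7.86 ± 4.81 FPKM (12h), 5.38 ± 1.29 FPKM (24h) and 6.07 ± 0.459 FPKM (48h). Glyma.16G008200, published as a further NSP1 copy, had means of 0.978 ± 0.341 FPKM (12h), 1.90 ± 0.924 FPKM (24h) and 1.46 ± 0.603 FPKM (48h), again with SD over 3 libraries. Both loci published as NSP2 were under the filter, at no more than 0.874 and 0.326 FPKM. Glyma.12G040000, published as NARK, a receptor kinase of autoregulation, averaged 1.61 ± 0.588 FPKM in the 24h libraries, compared with 0.602 ± 0.133 FPKM in the 12h libraries (SD, n = 3 each), and its fitted log2 fold change of 0.68 did not pass (limma adjusted p = 0.499). Its 24h libraries lay above all 12h libraries, as in 8.54% of tested genes. Of the loci published as RIC1 and RIC2, peptide genes induced in nodulating roots, RIC2 (Glyma.06G284100) was listed at 0 in all 9 libraries and RIC1 (Glyma.13G292300) had 0 to 2.31 FPKM, highest in 12h replicate 2.

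**Figure D5:**
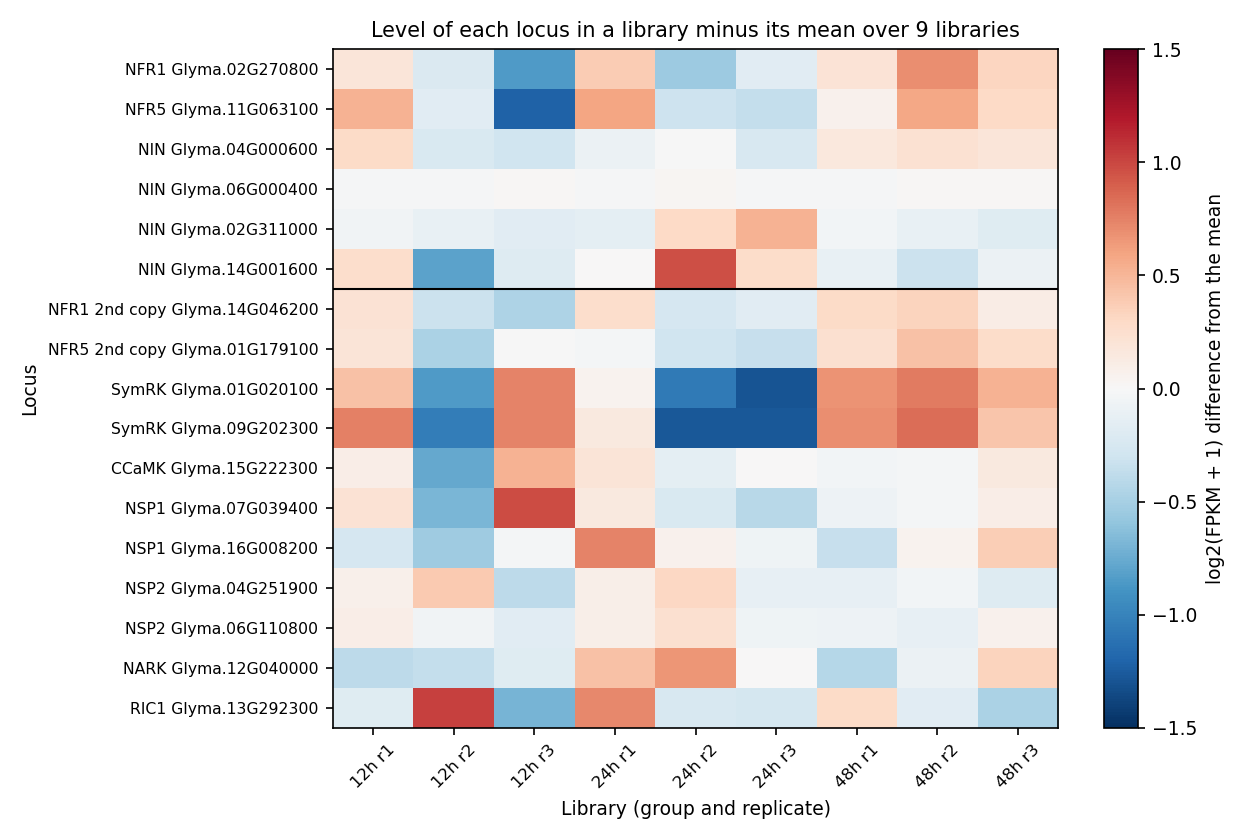
Level of each locus, as log2(FPKM + 1), in a library minus its own mean over the 9 libraries, for the 6 members (above the line) and the listed pathway loci above 0 in any library. Names are published locus names, and r is the replicate. The 2 receptor rows are lowest in 12h replicate 3, and the 2 SymRK rows in 24h replicates 2 and 3 and 12h replicate 2.

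Across the 9 libraries, the tested genes whose log2(FPKM + 1) pattern was most like that of NFR1 were Glyma.18G127500 (Pearson's r = 0.980) and Glyma.08G217400 (r = 0.966). For NFR5 they were Glyma.07G035800 (r = 0.981) and Glyma.02G171600 (r = 0.968), and for the NIN locus Glyma.14G001600 they were Glyma.02G073000 (r = 0.974) and Glyma.04G038400 (r = 0.971). NFR5 ranked 14 among the 31517 other genes by likeness to NFR1, and NFR1 ranked 26 by likeness to NFR5. These values describe 9 libraries that differ in overall level, and such high values can arise when that many genes are searched.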

How the data were processed

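The authors deposited 1 table of FPKM values, which scale fragments by transcript length and mapped total, with 1 column for each of the 9 libraries (unit and columns per the file headers and name). The submitters' processing notes name TopHat2 2.1.0 and Cufflinks 2.2.1. TruSeq RNA library chemistry is stated in the labels' protocols. The genome build was not given in the sources used here. The deposited table's name refers to tissue culture, and the labels (root hair cells) were followed.

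Read depth is unknown. Had whole reads been counted and divided by a fixed length per gene, low genes (under 0.2 FPKM) would repeat a few ratios between libraries. The commonest ratio, with a tolerance of 1%, took in 1.44% to 5.74% of them over 36 pairs of libraries. Lengths estimated per library, or split reads, could blur such ratios, so this check cannot decide whether whole reads were counted. No counting intervals are therefore given.

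limma 3.58.1 (R 4.3.3) tested the 31518 genes that reached 1 FPKM in 3 or more libraries, with an intensity trend, on log2(FPKM + 1). All 9 libraries entered 1 model by group (prior degrees of freedom 5.893). The model was also run on simulated data, in which each gene varied independently and with the same spread in all libraries. That run lacked the variation that genes share across these libraries, so it does not cover its effect on the calls. Fold changes of log2(FPKM + 1) understate changes of low genes. Ratios of single values were compared with exact permutation tests (Python 3.11.15). Other settings varied the pseudocount (0.1) and the filter (none, or 5 FPKM), scaled libraries by median of ratios or to TPM, added a replicate block, and fitted fewer libraries (the 6 being compared, or all but 1). The members and lists were chosen with earlier results of these data known. All members are named, of the pathway list those above the filter, and for each tested member the 2 genes with the highest correlation. Other pathway loci named were chosen after their values were seen. RefSeq entries were found for 0 of the 56044 IDs.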

Additional observations from a re-analysis of the deposited data

How the results depend on the processing

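Members called numbered 0 in each comparison of 2 ages under all 17 alternatives, and 0 over the 3 ages under all 16. Among these alternatives is a fit with 1 library left at 24h, whose counts with 24h show nothing about stability. The background count of genes called moved far more. In the order 24h versus 12h, 48h versus 24h, 48h versus 12h and 3 ages, it was 12, 0, 37 and 9 with all libraries. Leaving out 1 library moved these to 2 to 3803, 0 to 3730, 1 to 58 and 2 to 3123, and 3803, 3730 and 3123 came without 12h replicate 2. Fitting the 6 libraries compared gave 9, 5412 and 62 for the 2-age comparisons. With no filter the counts were 2, 1, 2 and 3, with median-of-ratios scaling 5, 0, 1 and 2, with TPM 3, 1, 45 and 17, with a pseudocount of 0.1 they were 11, 2, 40 and 35, and with the filter at 5 FPKM, which drops Glyma.14G001600, 8, 0, 22 and 10. A setting chosen after seeing the data left out the 3 libraries with high first-component scores. It gave 22 for 48h versus 12h, with 2 libraries at 12h. At 24h it leaves 1 library, assumed to vary like those of the other groups. Its counts with 24h are therefore not given, and its values for 24h rest on 1 library and show nothing about stability.

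Signs of uncalled values changed in several settings, and the cause was not tested. Leaving out 1 library gave log2 fold changes for 24h versus 12h of -0.096 to 0.42 for Glyma.02G270800 and -0.20 to 0.67 for Glyma.11G063100. They were negative without 12h replicate 3 and without 24h replicate 1. For 48h versus 24h they ran from 0.30 to 0.76 and from 0.17 to 0.65, and for 48h versus 12h from 0.42 to 0.94 and from 0.14 to 1.01. For Glyma.14G001600, leaving out 1 library gave 0.38 to 0.91 for 24h versus 12h and -0.79 to -0.31 for 48h versus 24h. Its 48h versus 12h value then ran from -0.21 to 0.32, and was -0.0068 after median-of-ratios scaling and -0.21 without the 3 libraries. With 24h replicate 1 as the lone 24h library it was -0.035 for 24h versus 12h, and Glyma.11G063100 was -0.27 for 48h versus 24h. The NFR1 to NFR5 log2 ratio differed by -0.26 to 0.11 for 24h versus 12h and by -0.071 to 0.30 for 48h versus 12h with 1 library left out.

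Replicate numbers are shared between groups, but same-numbered libraries did not deviate together throughout, with correlations of -0.0778 to 0.351. A replicate block left 0 members called, with an adjusted p of 0.503 for Glyma.02G270800 in 48h versus 12h, and called 21, 4, 102 and 81 genes.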

Other observations

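The level of the receptors relative to the loci published as SymRK was set out after their values were seen, as a description. The mean of NFR1 and NFR5 divided by the mean of both SymRK loci was 0.673, 1.35 and 0.213 in the 12h libraries, 1.04, 1.35 and 1.66 in the 24h libraries, and 0.530, 0.697 and 0.699 in the 48h libraries. The 48h libraries all lay below the 24h libraries, and no share over other gene pairs was computed. Both SymRK loci were themselves higher at 48h than at 24h with no overlap, as were 32.6% of tested genes. Each receptor overlapped between these groups. The ratio was above 1 in 4 libraries, the 3 with high first-component scores and 24h replicate 1, and it was lowest in 12h replicate 3, where the receptors were lowest and the SymRK loci were at 49.6 and 39.4 FPKM. The part of those libraries in this ratio was not tested.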
